A study of Saccharomyces cerevisiae with 2 samples.

Results

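The genes described here are the autophagy genes of budding yeast (Saccharomyces cerevisiae), together with genes of vacuolar proteases and peptidases. They were taken by name: every gene with an ATG number as its symbol or a synonym, without those whose symbol starts with VPS, and with PEP4, PRB1, PRC1, CPS1 and APE1 (also called LAP4) added. This gave 43 genes, 38 with an ATG number and 5 hydrolase genes. Of these, 42 had a probe set and 1, ATG44, which encodes a mitochondrial fission protein, had none that could be named. The arrays measured 5656 named genes in all. The rule itself uses no measured value, though it was written with earlier results of these data known.

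The samples are 2 replicate cultures of a single group, a strain whose histone H3 carries arginine at lysines 4, 36 and 79 (H3 K4,36,79R), the sites that Set1, Set2 and Dot1 methylate. Both cultures were grown in selective galactose medium and then kept for 12 h in selective glucose medium, which turned off a wild-type H3 gene and left the mutant H3 as the one made. Total RNA was taken at an optical density of 0.5 to 0.7 and put on 1 Affymetrix expression array per culture. Wild-type cells and further time points that the design names were not analysed here, so nothing below compares mutant with wild type or glucose with galactose. The 3 H3 probe sets match both H3 genes. At 1711 ± 2.83, 147 ± 13.7 and 2.41 ± 1.92 (mean ± SD, n = 2), they do not tell mutant from wild-type transcript and so do not check the labels.

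Autophagy carries cytoplasm and organelles into the vacuole, the yeast counterpart of the lysosome, inside a membrane sac called the autophagosome. TORC1 holds the Atg1 kinase complex inactive in rich medium. When nutrients run out, that complex brings in Atg9 vesicles and a phosphatidylinositol 3-kinase, and a pair of ubiquitin-like systems attaches Atg8 to the growing membrane. In growing cells many of the same proteins run the cytoplasm-to-vacuole targeting (Cvt) pathway, which delivers the aminopeptidase Ape1. The hydrolases of the vacuole then break down what arrives.

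Values are array signals on a linear scale, and each gene's value on an array is the mean log2 signal of its probe sets, turned back to the linear scale. Errors are the SD over the 2 arrays (n = 2), whose number limits the precision. Signal depends on how well a probe set hybridises as well as on the amount of RNA, so genes are set against the whole array and not ranked against each other as RNA levels. The number of cells and the RNA per cell cannot be told apart in such samples. The background is the highest of 9 control probe sets for the opposite strand of E. coli transcripts, 3.39 on replicate 1 and 4.07 on replicate 2. The arrays read the 15 added poly-A controls alike, whose log2 ratios (replicate 2 over replicate 1) averaged -0.0094 with an SD of 0.053.

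The ATG genes were mostly dim on both arrays, and all 5 hydrolase genes were bright. The 37 measured ATG genes had a median signal of 25.4 ± 2.23, against 41.7 ± 0.38 for all genes, and the 5 hydrolase genes had 376 ± 8.33. Over all 42 genes the median was 28.4 ± 0.40. Signal above background on both arrays was found for 41 of the 42, and for 96.3% of all genes, so the count is near that of the whole array. ATG16 was the exception. At 2 times that background, 34 of the 42 lay above it on both arrays, against 90.8% of all genes, and ATG4, ATG14, ATG16, ATG17, ATG19, ATG23, ATG29 and ATG36 did not. ATG19 is among these by a gene value that averages 2 unlike probe sets, given below. Signal above the median gene on both arrays was found for 15 of the 42 genes (35.7%), against 48.2% of all genes, and 26 lay below it on both. The 15 comprise the 5 hydrolase genes and 10 ATG genes, and ATG2 lay on different sides of the median on the 2 arrays.

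**Figure D1:**
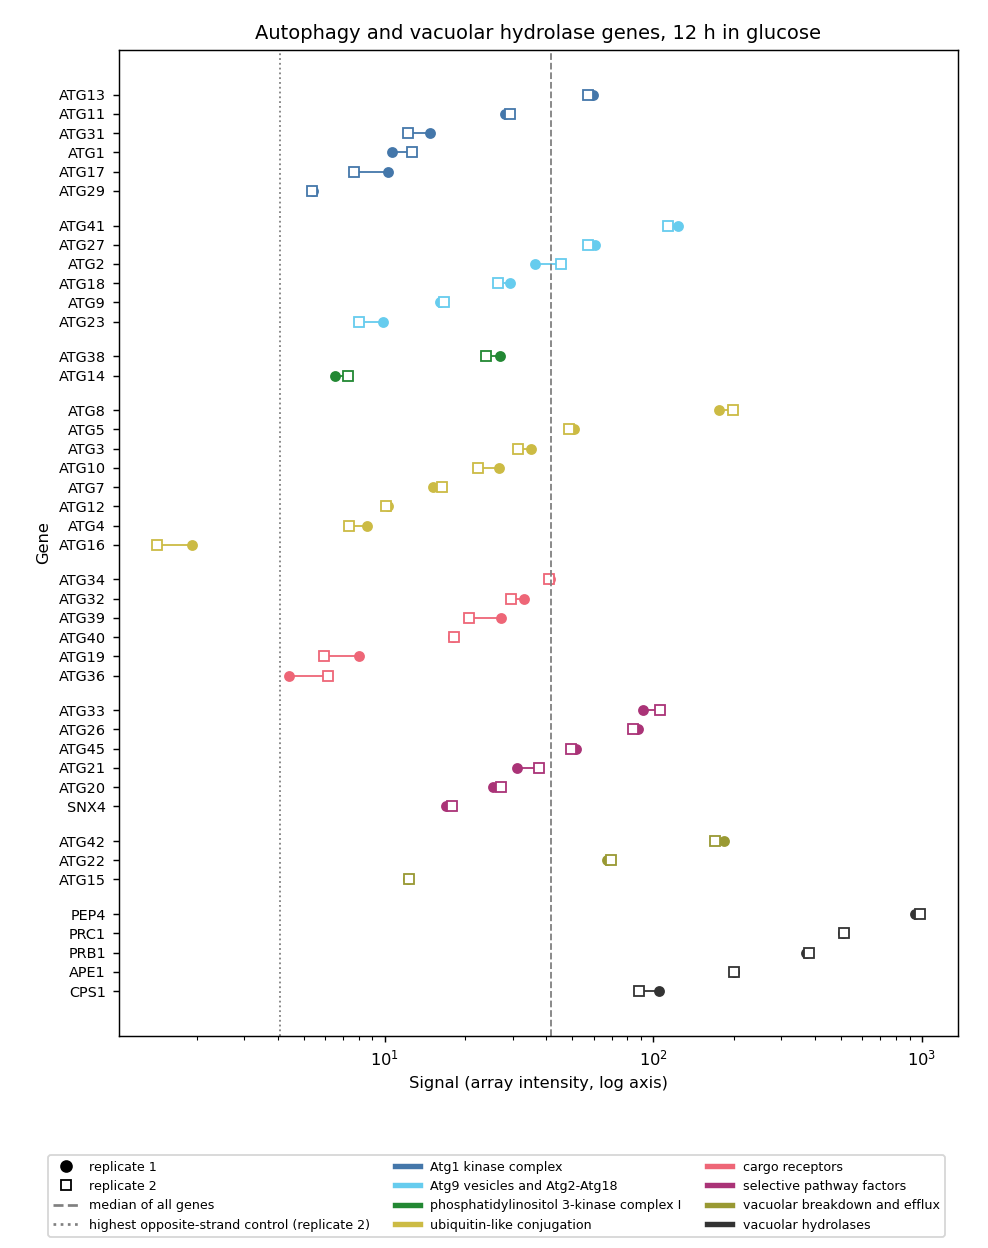
Signal of each of the 42 measured genes on replicate 1 (filled circles) and replicate 2 (open squares), on a log axis, with genes grouped and coloured by role. Most ATG genes lie between the background (dotted line, 4.07) and the median of all genes (dashed line, 41.7), while the 5 hydrolase genes lie to the right of the dashed line.

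Ranked by signal over all genes and cut into quartiles of 1414 genes, 16 of the 37 ATG genes (43.2%) lay in the lowest quartile, 11 in the second, 6 in the third and 4 in the highest. ATG19 is among the 16 by its gene value, while its brighter probe set read 77.1 and 114. A quartile holds 25% of all genes by construction. The 4 in the highest quartile were ATG8, ATG42, ATG41 and ATG33, and all 5 hydrolase genes lay there too. The lowest quartile ends at a signal of 19.2, which is also the filter used for differences between the cultures.

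**Figure D2:**
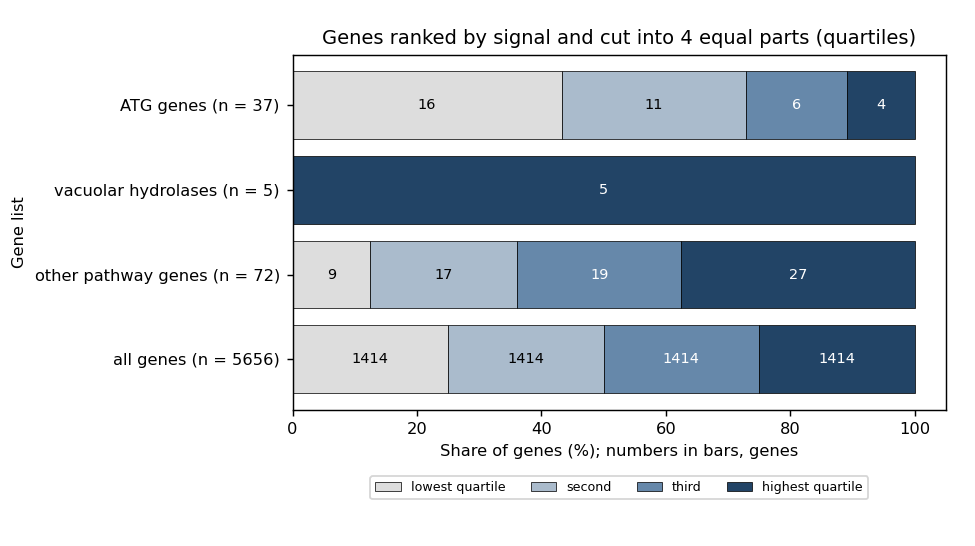
Share of genes (%) in each quartile of all genes ranked by signal, for the ATG genes, the hydrolase genes, other genes of the pathway and all genes, with the number of genes in each bar. By gene value, the lowest quartile holds 16 of 37 ATG genes (ATG19 included), 0 of 5 hydrolase genes and 9 of 72 other pathway genes.

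In the Atg1 kinase complex, which starts autophagosome formation, the median signal was 12.6 ± 0.18 over 6 genes, and 4 of them lay in the lowest quartile. ATG1, the gene of the kinase itself, read 10.7 on replicate 1 and 12.7 on replicate 2. ATG13, whose product links the kinase to the scaffold and is phosphorylated by TORC1, read 59.5 and 57.0. It was the only gene of this complex above the median gene, on both arrays. The scaffold for starvation autophagy is built from Atg17, Atg29 and Atg31. Their genes were all dim, with ATG17 at 10.3 and 7.71, ATG29 at 5.43 and 5.37 and ATG31 at 14.7 and 12.2. ATG11, the scaffold gene for selective autophagy and the Cvt pathway, read 28.1 and 29.3, brighter than background by 8.30 times on replicate 1 and 7.18 times on replicate 2.

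Genes of the Atg9 vesicle system had a median of 34.3 ± 2.17 over 6 genes and spread widely. ATG9, which encodes the membrane protein that the vesicles carry, read 16.04 and 16.66. The genes of its trafficking partners fell on either side of the median gene, with ATG23 at 9.91 and 8.02 and ATG27 at 60.7 and 57.3. ATG41, whose product is also needed for Atg9 movement, was in the highest quartile at 123 and 113. ATG2, for the lipid transfer protein that feeds the growing membrane, read 36.3 and 45.4, and ATG18, for its partner that binds phosphatidylinositol 3-phosphate, read 29.3 and 26.4. The 2 genes specific to phosphatidylinositol 3-kinase complex I both lay below the median gene. ATG14, whose product directs the kinase to the autophagosome, read 6.52 and 7.28, and ATG38, whose product holds the complex together, read 27.0 and 23.8.

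The ubiquitin-like conjugation genes had a median of 20.1 ± 1.12 over 8 genes, with a wide range around it. ATG8, the gene of the ubiquitin-like protein that is attached to lipid, read 175 and 199. Its signal lay above that of 86.5% of all genes. ATG12, the other ubiquitin-like protein gene, was dim at 10.3 and 10.1. Both modifiers share the activating enzyme Atg7, whose gene read 15.1 and 16.4. Their conjugating enzymes are encoded by ATG3, for Atg8, at 35.2 and 31.3, and by ATG10, for Atg12, at 26.6 and 22.2. ATG5, which encodes the protein that Atg12 is attached to, was above the median gene at 50.9 and 48.8. ATG4, the gene of the protease that trims Atg8 and frees it from lipid, read 8.63 and 7.41. ATG16, whose product joins Atg12-Atg5 pairs into a larger complex, read 1.92 and 1.42, not above background on either array.

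By gene value, none of the 6 genes in the cargo receptor list lay above the median gene on both arrays. That list had a median of 21.0 ± 2.30. It leaves out ATG45, placed below among further factors, which lay above the median gene on both arrays at 51.7 and 49.6. ATG32, the mitophagy receptor gene, read 33.0 and 29.6. ATG36, for the receptor of peroxisomes, read 4.41 and 6.17, just above background. For receptors of the endoplasmic reticulum, ATG39 read 27.2 and 20.5 and ATG40 read 18.0 and 18.1. ATG34, for a receptor of alpha-mannosidase, read 41.2 and 40.9. Its neighbour on chromosome XV, with 0 genes between them, is ATG19, for the Cvt receptor of Ape1.

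ATG19 has 2 probe sets that disagreed by far more than 4-fold. The brighter read 77.1 on replicate 1 and 114 on replicate 2, and the dimmer 0.831 and 0.309, under the background. The gene value of 8.004 and 5.932 is a mean over both and describes neither. On the brighter probe set alone, ATG19 lay above the median gene on both arrays, and the median of the receptor list was 27.6. Its direction between cultures turns with the choice of probe set: the brighter was 1.48-fold higher on replicate 2 (log2 ratio 0.56), while the gene value had a log2 ratio of -0.43. Of 4661 named probe sets that passed the same signal filter, 15 (0.322%) had a log2 ratio at or above that of the brighter ATG19 probe set. That share was taken after the ratio was seen, rests on 1 array against 1 array, and is no p-value. ATG34, whose probe set carries the next lower number, 8615 against 8616, had a log2 ratio of -0.0088. ATG15 was the other gene with several probe sets, and its 3 probe sets read alike, from 9.96 ± 0.29 to 14.1 ± 0.049.

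Further factors of selective pathways had a median of 42.5 ± 1.61 over 6 genes, close to the median gene. The sorting nexin genes ATG20 and SNX4 (ATG24) read 25.2 and 27.0, and 16.9 and 17.9. ATG21, for a phosphoinositide-binding protein related to Atg18, read 31.0 and 37.6. ATG26, which encodes a sterol glucosyltransferase, read 88.1 and 84.0, ATG45 read 51.7 and 49.6, and ATG33, for a mitochondrial protein that aids mitophagy, read 91.9 and 106. These 3 genes lay above the median gene on both arrays.

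Genes that act once cargo is inside the vacuole were not all bright. The 5 hydrolase genes and ATG42 lay in the highest quartile, while ATG22 and ATG15 did not. PEP4, for proteinase A, which activates the other vacuolar proteases, read 941 and 985, above 98.7% of all genes. PRC1, for carboxypeptidase Y, read 509 and 515, and PRB1, for proteinase B, read 370 and 382. APE1, the Cvt cargo, read 200.3 and 199.2, and CPS1, for carboxypeptidase S, read 105 and 88.6. Among ATG genes of the same step, ATG42, for a vacuolar carboxypeptidase, was bright at 183 and 170. ATG22, for an exporter of amino acids from the vacuole, read 67.6 and 69.4. ATG15, for the lipase that opens the delivered membrane, was dim at 12.27 and 12.28.

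**Figure D3:**
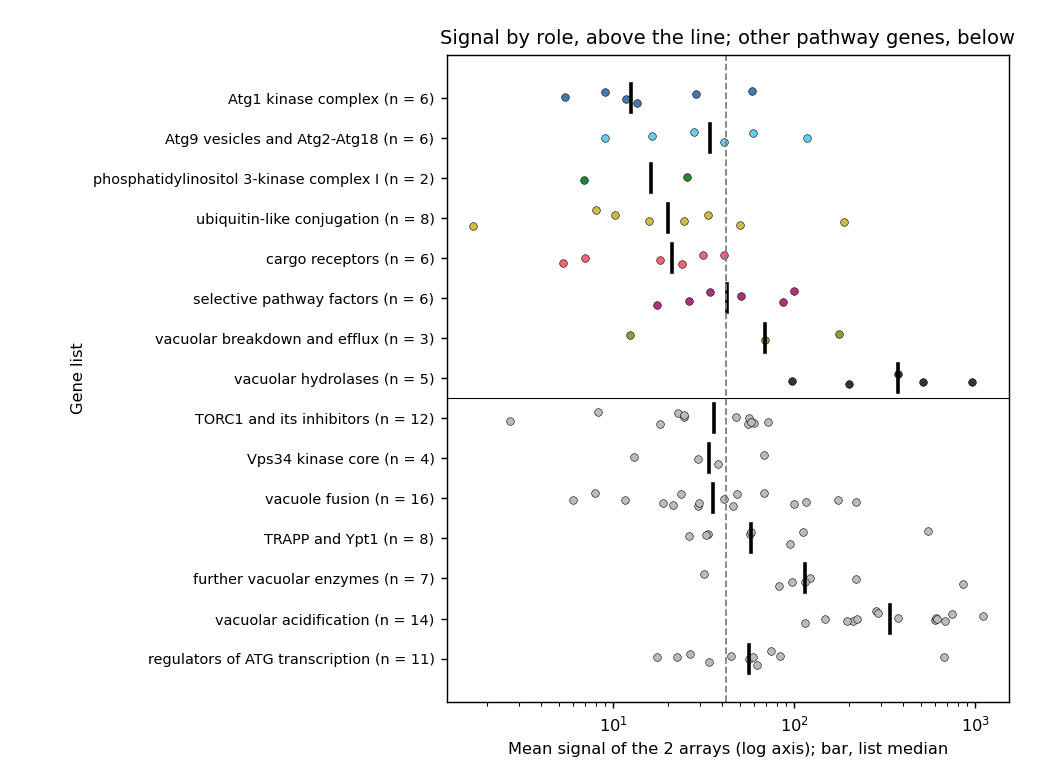
Mean signal of the 2 arrays for each gene (points, log axis) by role, with list medians as bars and the median of all genes as a dashed line. Above the horizontal line, list medians run from 12.6 for the Atg1 kinase complex to 376 for the hydrolases, and below it 7 lists of other pathway genes run from 33.7 for the Vps34 kinase core to 339 for vacuolar acidification.

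Of 73 other pathway genes listed, 1 is ATG42 under its systematic name and was left out here, and the remaining 72 were measured. Their median was 58.6 ± 0.036, and 46 of them (63.9%) lay above the median gene on both arrays, with the 48.2% of all genes as background. The lists differed, with all 14 vacuolar acidification genes and 6 of 7 further vacuolar enzyme genes among the 46. The other lists gave 6 of 12 for TORC1, 1 of 4 for the Vps34 kinase core and 7 of 16 for vacuole fusion. TRAPP subunits with Ypt1 gave 5 of 8, and regulators of ATG transcription gave 7 of 11. The genes upstream were moderate. The TORC1 list had a median of 36.1 ± 1.59 over 12 genes, with TOR2 at 59.8 ± 0.82 and KOG1 at 47.5 ± 3.09. TOR1, a kinase gene, read 3.39 and 1.98, not clearly above background on replicate 1 and below it on replicate 2. The core of the phosphatidylinositol 3-kinase had a median of 33.7 ± 0.36 over 4 genes. VPS34, for the catalytic subunit, had 37.9 ± 2.32, VPS15 had 67.9 ± 2.49, and VPS30, which is also ATG6 and was left out of the set by its symbol, had 29.4 ± 3.04.

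Most genes for the vacuole's own enzymes and for its acidification lay above the median gene. The 14 genes listed for vacuolar acidification had a median of 339 ± 10.6, and all lay above the median gene. Among them, VMA1 was at 283 ± 38.6, VMA2 at 679 ± 17.0 and VMA3 at 1108 ± 29.8. The 7 further vacuolar enzyme genes had a median of 114 ± 2.74, and 6 of them lay above the median gene on both arrays, with the alpha-mannosidase gene AMS1 at 122 ± 9.22, the aminopeptidase gene APE3 at 851 ± 6.66 and the alkaline phosphatase gene PHO8 at 82.0 ± 4.84. The exception was ATH1, for an acid trehalase, at 31.8 ± 1.39, named after its value was seen. Genes for fusion with the vacuole had a median of 35.7 ± 3.33 over 16 genes. Within that list the Rab gene YPT7 was at 175 ± 4.41 and the SNARE genes VAM3 and VAM7 were at 23.5 ± 0.79 and 7.87 ± 0.74. The list of TRAPP subunits and Ypt1, which act in vesicle tethering, had a median of 57.5 ± 4.49 over 8 genes, with YPT1 at 545 ± 24.4, TRS85 at 26.3 ± 6.43 and BET3 at 111 ± 8.89. Listed regulators of ATG transcription had a median of 55.9 ± 2.83 over 11 genes. UME6, a repressor of ATG8 that works with Sin3 and Rpd3, had 17.3 ± 0.56, SIN3 had 74.4 ± 9.00 and RPD3 had 56.4 ± 2.06.

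The 2 cultures were then compared with each other. With 1 array against 1 array no difference has a replicate check and no p-value is given. A filter that dropped the dimmest 25% of genes by mean log2 signal kept 4242 of all genes, 26 of the 42 members and 21 of the 37 ATG genes. Among the 26, 23 (88.5%) differed by less than 1.2-fold, as did 89.6% of all kept genes. ATG39 was at least 1.2-fold lower on replicate 2, 1 of 26 genes against 6.91% of all kept genes. ATG2 and ATG21 were at least 1.2-fold higher, 2 of 26 against 3.47%. At 1.5-fold there was no member in either direction, where 1.2% of kept genes were lower and 0.306% were higher. Counts this small are near what the whole array gave.

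**Figure D4:**
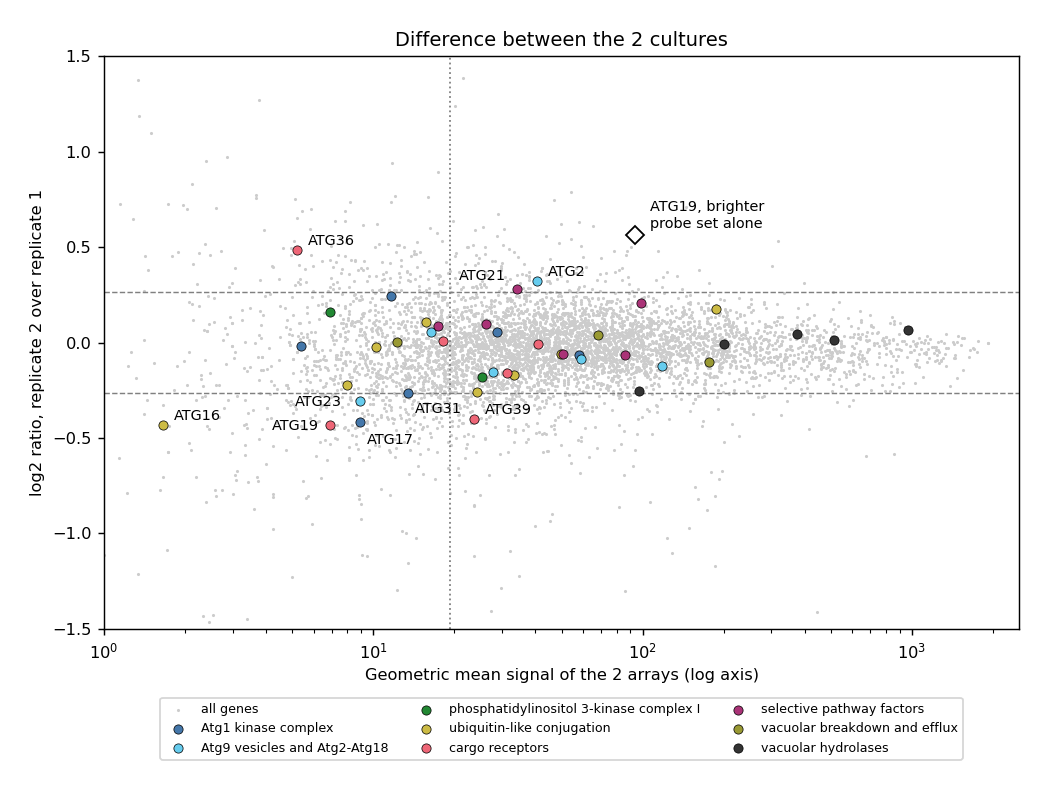
Log2 ratio of replicate 2 to replicate 1 against the geometric mean signal (log axis) for all genes (grey) and the 42 measured genes (coloured by role), with 1.2-fold as dashed lines and the signal filter of 19.2 as a dotted line. To the right of the filter ATG2, ATG21 and ATG39 pass the dashed lines, the open diamond shows the brighter ATG19 probe set, and 63 genes lie outside the plotted range.

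The median log2 ratio of the 26 kept members was -0.061, against -0.023 for all kept genes, and the SD was 0.17 against 0.20. Bright hydrolase genes differed little between cultures, with log2 ratios of 0.067 for PEP4, 0.045 for PRB1, 0.016 for PRC1 and -0.0077 for APE1. CPS1, at -0.25, differed most among the hydrolase genes, by less than 1.2-fold. In the highest quartile of signal the ratios of all genes had a central 95% from -0.32 to 0.21. ATG33, at 0.21, lay just above that range, while ATG8, at 0.18, and CPS1 lay inside it. In the lowest quartile, where the SD over all genes was 0.45, the members' log2 ratios ran from -0.43 to 0.48 and none left the central 95%, from -0.84 to 0.65.

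With no filter, 6 of 42 genes were at least 1.2-fold lower on replicate 2, against 10.9% of all genes. These were ATG16, ATG17, ATG19, ATG23, ATG31 and ATG39. ATG19 counts here by its gene value, while its brighter probe set alone was 1.48-fold higher on replicate 2. Higher by that size were 3 of 42, ATG2, ATG21 and ATG36, against 5.75% of all genes. The probe sets of ATG16, ATG17, ATG23 and ATG31 carry numbers in the runs from 6178 to 6594 and from 9334 to 9924, which were drawn around the 20 kept genes that were at least 2-fold lower on replicate 2. A raised share of lower genes inside the runs is therefore partly fixed by how they were drawn. Kept probe sets in these runs had log2 ratios with a median of -0.044 and -0.056 and SDs of 0.36 and 0.32. Of 6 members with a probe set in the runs, 4 were lower by 1.2-fold, against 13.7% of all genes there, and of 36 members elsewhere 2 were, against 10.4%. The 2 elsewhere include ATG19, by its gene value. ATG20 and PRC1, the other 2 in the runs, had log2 ratios of 0.098 and 0.016. The part of probe set number in the lower values was not tested.

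Position and length were not used to choose the genes. The measured ones lie on 15 chromosomes, from 1 of the 509 measured genes of chromosome VII and 3 of 727 on chromosome IV to 7 of 488 on chromosome XII and 7 of 444 on chromosome XVI. These chromosomes were picked out after their counts were seen. In gene order, ATG19 and ATG34 are direct neighbours, and ATG27 and CPS1 have 4 genes between them, PEP4 and ATG5, as well as ATG36 and ATG27, have 5, and ATG14 and ATG42 have 9. ATG17 and ATG23, both dim and both lower on replicate 2, have 6 genes between them, and their probe set numbers are 9914 and 9878. Gene length had a median of 1263 bp, against 1250 bp for measured protein genes, from 354 bp for ATG8 to 4779 bp for ATG2. Across the 42 genes, the Pearson correlation between log2 length and log2 signal was 0.13 and Spearman's rho was 0.17. Without the hydrolase genes, the 37 ATG genes gave 0.042 and 0.062, and all measured protein genes gave -0.025 and -0.043. Between the arrays, the Pearson correlation of log2 signal was 0.994 over the 42 genes and 0.989 over all genes. These correlations run across genes, which share arrays and are no independent replicates.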

How the data were processed

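RNA of 2 cultures of 1 group was measured on 1 array each. The authors deposited intensity values, linear and with 1 signal for each probe set. The submitters' processing notes name MAS5 without a version, and its settings were not stated. Of 9335 probe sets, 60 are controls, 6504 name 1 gene, 328 name several and 2443 are unnamed here. The platform annotation gave gene identifiers, and RefSeq's R64 table gave the current names. Medians over all probe sets were 28.4 and 27.5 on replicates 1 and 2.

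A gene's value was the mean log2 signal of its probe sets, values of 0 left out. Members came from RefSeq symbols and synonyms. All members are named, and the first 3 measured genes of each other list. The members, lists and tests were chosen with earlier results of these data known. With 1 group there was no test. Counting steps were tested on simulated data. Alternatives were quantile normalisation, median centring, loess, a pseudocount of 16, other filters, 1.5-fold, other backgrounds, plain or brightest probe sets, and leaving out an array. Protein and promoter sequences were not used here. Python 3.11.15, numpy 2.4.6, pandas 2.3.3, statsmodels 0.14.6 and matplotlib 3.10.9 were used.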

Additional observations from a re-analysis of the deposited data

How the results depend on the processing

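The 93 alternative values cover the median signals, the counts, the median log2 ratio and the log2 ratio of ATG19. Of these, 82 stayed within the spread between arrays, the spread of ratios or 1.5 times the count, 10 moved and 1 changed sign. Not all of the 82 could have moved. Median signals without 1 array always stay within the spread, and plain or brightest probe sets cannot change the 40 members with 1 probe set. The one that changed sign was the log2 ratio of ATG19, at -0.43, which was 0.56 with the brightest probe set, an alternative added for that gene after seeing the data. With the brightest probe set of each gene the median over all members was 29.8 and that of the cargo receptors 27.6, since ATG19 then rests on its brighter probe set. Quantile normalisation gave 58.63 for the other pathway genes, where the SD over arrays was 0.036. The counts at 1.2-fold are small and moved easily. With a pseudocount of 16 there were 0 genes in either direction, and at 1.5-fold also 0 in either direction, with the same 26 members. The count of lower genes was 6 of 42 with no filter, 0 of 19 with a filter at the 40th percentile, and 2 of 36 with no filter and without the probe sets in the 2 number runs, an alternative added after seeing the data. ATG19 enters the counts of 6 and 2 by its gene value. Leaving out either array gave 15 and 16 genes above the median gene. With 2 arrays a single one always lies within 1 SD of their mean, so this says nothing about stability of the signals. Of the 8 genes that lay under 2 times the highest opposite-strand control, ATG19 did so by its gene value only. Its brighter probe set read 77.1 and 114. Signal near the controls limits what the others can show, ATG17 and ATG23 among them.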
